A study of Homo sapiens with 6 samples.

Results

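Mucins and trefoil factors were examined as the 10 genes MUC1, MUC4, MUC5AC, MUC5B, MUC13, MUC16, MUC20, TFF1, TFF2 and TFF3, taken by symbol from a table of read counts for 19470 genes. All 10 were listed, and 9 passed the filter on low counts, with TFF3 the exception. HCCC9810 is an established human cholangiocarcinoma (CCA) cell line, labelled wild type, and the 3 ILL libraries came from cells given isolinderalactone (ILL), a plant sesquiterpene lactone, at 20 μM for 24 h, while the 3 control libraries came from cells given only the DMSO vehicle for the same time. The libraries represent 1 cell line at 1 dose and 1 time, and nothing in the labels says whether replicates came from separate cultures, so p-values measure the spread between these libraries, which may be technical. The comparison addresses which genes ILL changed in these cells, and here how the genes of the mucous barrier moved.

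Mucins are very large glycoproteins whose serine- and threonine-rich repeats carry dense O-linked sugar chains. Membrane mucins such as MUC1, MUC4, MUC13, MUC16 and MUC20 stand on the apical surface of epithelial cells and take part in receptor signaling, whereas MUC5AC and MUC5B are secreted and polymerize into the mucus gel. Trefoil factors are small disulfide-rich peptides released together with mucins, in the stomach TFF1 with MUC5AC and TFF2 with MUC6, and in the intestine TFF3 with MUC2. Normal small bile ducts make little gel-forming mucin, and MUC1, MUC4 and MUC5AC are widely studied in CCA tissue.

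Total counts ranged from 34282764 to 37758569 per library, and replicates of the same group differed beyond counting error, at 5.10 to 11.5 for chi-square over its degrees of freedom. The 10 most abundant genes took 5.20% to 5.45% of the counts in control libraries and 8.12% to 8.25% with ILL. Of the 10 markers of bile duct epithelium examined, 8 had a mean of at least 1 CPM (a count scaled to the size of its library), with KRT7, KRT19 and EPCAM all abundant, while CFTR was at 0 in each library. The 10 summed to between 9051 and 9294 CPM in control libraries and between 9532 and 10120 CPM with ILL, while of the 8 tested 3 rose and 4 fell (median log2 fold change -0.17). CDH1, KRT7 and EPCAM rose by log2 fold changes of 2.07, 0.64 and 0.24, and KRT18, SOX9, KRT19 and KRT8 had log2 fold changes of -0.82, -0.56, -0.18 and -0.16. Summed markers of fibroblasts were between 12.1 and 14.2 CPM in control libraries and between 16.8 and 18.4 CPM with ILL. DCN, COL3A1, PDGFRB and COL1A2 were too low to be tested, COL1A2 with 7, 11 and 12 counts in controls and 10, 2 and 0 counts with ILL. COL1A1 rose from a mean of 10.2 to 14.9 CPM, a log2 fold change of 0.55, and LUM, at 0.16, did not pass the test. Summed immune markers went from between 37.8 and 42.3 CPM to between 112.7 and 119.0 CPM, nearly all of it CD68, a lysosomal protein, with PTPRC at no more than 9 counts. Hepatocyte markers summed to between 31.2 and 35.3 CPM in controls and between 29.96 and 48.3 CPM with ILL, and CYP3A4 was at 0. ALB had 245, 160 and 240 counts in control replicates 1 to 3 and 214, 240 and 541 counts in ILL replicates 1 to 3. It passed the test as higher with a log2 fold change of 0.69, although the groups overlapped and ILL replicate 3 stood far above the other ILL libraries. HNF4A fell, with a log2 fold change of -1.39. The 4 endothelial markers summed to less than 2 CPM in every library, at most 1.65 CPM in controls and 1.91 CPM with ILL. Among them VWF rose by a log2 fold change of 2.05, from 2, 13 and 0 counts to 25, 23 and 13 counts. PECAM1 lay in the other direction, with 19, 15 and 15 counts in controls and 9, 10 and 6 counts with ILL. Its log2 fold change of -0.89 did not pass the test, nor did that of 0.29 for CDH5, and KDR was too low to be tested. COL1A1, COL1A2, LUM, ALB, HNF4A, VWF, PECAM1, CDH5 and KDR were named after their values were seen. The part of these markers in the results given here was not tested. In RNA from whole cultures, fewer cells that make a transcript and less of it per cell cannot be told apart.

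Levels of different genes were compared per length, as the FPKM values deposited by the authors (fragments per kilobase of gene length, scaled to the total count). In control libraries the most abundant transcript of the group was TFF1, at 97.2 ± 4.41 FPKM (SD, n = 3), followed by MUC1 at 29.9 ± 1.85 FPKM and MUC5AC at 21.4 ± 0.870 FPKM. MUC16 at 6.25 ± 0.563 FPKM and TFF2 at 6.19 ± 1.04 FPKM overlapped in their ranges and could not be ordered. Next came MUC20 at 4.58 ± 0.387 FPKM, MUC4 at 0.858 ± 0.125 FPKM, MUC5B at 0.304 ± 0.051 FPKM and MUC13 at 0.177 ± 0.0576 FPKM, each without overlap with the gene above it, and TFF3 was listed at 0. With ILL the order changed at the top. MUC1 reached 73.0 ± 7.98 FPKM (SD, n = 3), its range of 65.0 to 81.0 FPKM overlapping that of TFF1, which was at 74.3 ± 8.94 FPKM with a range of 64.0 to 79.5 FPKM. MUC20 moved from the sixth to the fourth place, at 36.7 ± 1.34 FPKM, overlapping MUC5AC at 40.6 ± 4.46 FPKM. Below them lay MUC16 at 11.8 ± 1.999 FPKM, TFF2 at 7.83 ± 2.01 FPKM, MUC4 at 3.31 ± 0.431 FPKM and MUC5B at 0.548 ± 0.0108 FPKM. MUC13, at 0.172 ± 0.0338 FPKM, overlapped TFF3, which was listed at 0 in ILL replicate 2.

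**Figure D1:**
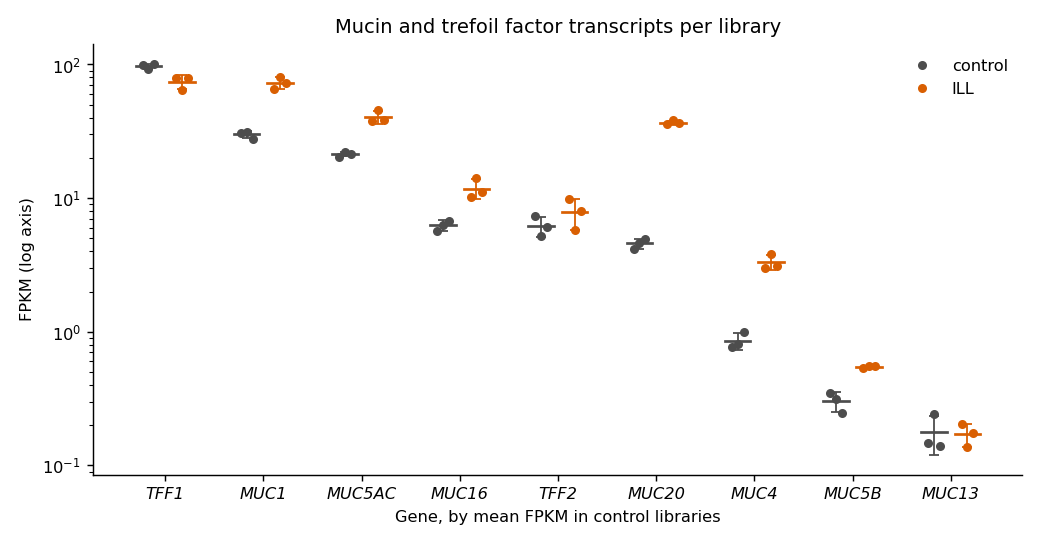
FPKM of the 9 tested mucin and trefoil genes in each library (points) with the group mean (bar) and SD (whiskers), on a log axis, controls in grey and ILL in orange, n = 3 per group. MUC20 shows the widest gap between the groups, from 4.58 to 36.7 FPKM, and TFF1 is the gene whose ILL libraries lie below its controls without overlap.

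Among the membrane mucins, MUC1, MUC4, MUC16 and MUC20 rose with ILL, and MUC13 did not pass the test. MUC20, a small membrane mucin that binds the hepatocyte growth factor receptor MET, lies on chromosome 3 of GRCh38 from 195720882 to 195741123. It was at 10.1, 11.2 and 12.1 CPM in control replicates 1 to 3 and at 90.6, 98.2 and 92.5 CPM in ILL replicates 1 to 3. The groups were far apart, and the 3 ILL libraries differed little among themselves. The fitted fold change was 8.42, a log2 fold change of 3.07 (SE 0.08, 95% interval 2.92 to 3.23, edgeR adjusted p = 5.6e-21). Here and for the other genes, SE is the standard error of the log2 fold change, and the adjusted p is that of the quasi-likelihood test in edgeR with Benjamini-Hochberg adjustment over all tested genes. Part of the MUC20 sequence is not its own. In GENCODE release 29, 1820 of its exonic bases, or 42.8%, also lie in exons of the long noncoding RNA MUC20-OT1 on the same strand, and 25.0% of its distinct 31-base words recur in the pseudogene MUC20P1. Altogether 60.1% of these words recur in transcripts of other genes, against 3.56% or less for each of the other 9 genes. The deposited FPKM values imply a length of 2493 bases for MUC20, against 4249 exonic bases in this release. How much of the shared sequence was counted is therefore not known. MUC20-OT1 was not among the genes counted and MUC20P1 was not analysed here, so which of these transcripts gave the reads cannot be told apart.

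MUC4, a very long membrane mucin known as a partner of the receptor ERBB2, lies next to MUC20 on the opposite strand, on chromosome 3 from 195746765 to 195812277. It was at 12.5, 13.2 and 16.5 CPM in control replicates 1 to 3 and at 51.6, 65.7 and 53.0 CPM in ILL replicates 1 to 3. Every ILL library was above every control library by more than the spread within either group. Its log2 fold change was 2.02 (SE 0.10, 95% interval 1.81 to 2.22, edgeR adjusted p = 4.0e-15), a fold change of 4.05. On the scale of log2 of FPKM plus 1, where the added 1 outweighs the control level of this gene, the value was 1.21.

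MUC1, the most abundant membrane mucin of many ductal epithelia and the source of the serum marker CA15-3, lies on chromosome 1 from 155185824 to 155192916. Control replicates 1 to 3 held 121.3, 124.3 and 111.2 CPM, and ILL replicates 1 to 3 held 269.5, 339.8 and 304.6 CPM. The lowest ILL library was thus more than 2-fold above the highest control library. The fold change was 2.56, a log2 fold change of 1.36 (SE 0.07, 95% interval 1.22 to 1.496, edgeR adjusted p = 3.8e-15).

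MUC16, which carries the CA125 antigen and binds mesothelin, lies on chromosome 19 from 8848844 to 8981342. It was at 243.5, 271.4 and 294.4 CPM in control replicates 1 to 3 and at 458.6, 639.7 and 506.3 CPM in ILL replicates 1 to 3. The groups did not overlap, although ILL replicate 2 stood well above the other ILL libraries. The log2 fold change was 0.99 (SE 0.08, 95% interval 0.82 to 1.16, edgeR adjusted p = 1.1e-10). MUC13, a membrane mucin of the gut on chromosome 3 from 124905442 to 124953819, was barely expressed. It had 16, 24 and 14 counts in control libraries and 21, 14 and 18 counts with ILL, so the groups overlapped. The log2 fold change of 0.03 had a 95% interval from -1.02 to 1.09 (edgeR adjusted p = 0.958), which allows a 2-fold change in either direction at this depth.

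RefSeq starts on GRCh38.p14 were at hand for 4 of the 10 genes. The 250 bases before the start are shown for MUC1 and MUC4, which rose, and for MUC13, which did not pass the test, each read 5′ to 3′ on the strand of the gene. Capitals mark matches on either strand to 8 motifs, and neighbouring matches can overlap. Among the motifs searched were the TATA box with the letters TATAAA, the GC box with the letters GGGCGG and the element spelled CACCC that members of the KLF family bind. The motifs of inducible factors were the AP-1 site with the letters TGANTCA and the STAT site, spelled TTCNNNGAA. The remaining motifs were the C/EBP-ATF element TGATGNAA, the E-box with the letters CACGTG and the κB site. The windows are chr1:155192916-155193165 for MUC1, chr3:195811930-195812179 for MUC4 and chr3:124934752-124935001 for MUC13, all on the minus strand. The RefSeq starts used for MUC4 and MUC13 lie within the spans that GENCODE release 29 gives these genes. The windows of MUC16, which also rose, are not shown, and both its RefSeq starts lie outside its GENCODE span.
MUC1: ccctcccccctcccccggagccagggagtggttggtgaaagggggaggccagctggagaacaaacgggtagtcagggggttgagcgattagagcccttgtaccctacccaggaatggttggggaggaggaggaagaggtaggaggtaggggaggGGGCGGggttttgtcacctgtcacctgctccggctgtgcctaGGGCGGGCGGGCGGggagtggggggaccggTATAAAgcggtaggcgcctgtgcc
MUC4: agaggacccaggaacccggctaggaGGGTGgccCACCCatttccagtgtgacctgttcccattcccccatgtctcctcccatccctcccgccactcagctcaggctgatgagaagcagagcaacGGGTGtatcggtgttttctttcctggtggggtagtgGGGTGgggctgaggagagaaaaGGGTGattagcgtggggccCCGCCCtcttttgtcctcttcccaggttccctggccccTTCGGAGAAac
MUC13: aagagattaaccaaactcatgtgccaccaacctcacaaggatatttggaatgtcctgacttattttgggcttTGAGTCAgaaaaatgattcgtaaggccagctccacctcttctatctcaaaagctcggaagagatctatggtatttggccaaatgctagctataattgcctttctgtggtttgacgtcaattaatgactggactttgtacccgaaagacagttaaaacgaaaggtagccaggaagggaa
The MUC1 window held a TATA box from base -24 to -19 before the start and 4 GC boxes between -96 and -41, of which 3 overlap. The MUC4 window held 5 CACCC matches, 1 GC box from -49 to -44 and a match to the STAT letters from -11 to -3, and no TATA box. The MUC13 window held only an AP-1 match from -178 to -172. The AP-1 letters also lay in 1 of the windows of MUC16, from -136 to -130, with 2 CACCC matches, and the other held 1 CACCC match and 1 GC box. G and C made up 66.0%, 60.4% and 41.6% of the bases in the order shown. Among all 35116 promoter windows of this length, 10.7% held TATAAA, 42.6% GGGCGG, 54.7% CACCC, 6.57% the AP-1 letters and 6.57% the STAT letters. The remaining letters were rarer, at 6.34% for CACGTG, 3.14% for TGATGNAA and 1.40% for the κB site, and none of these lay in the windows shown. These matches describe letters and were not tested against the expression values.

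The secreted gel-forming mucins MUC5AC and MUC5B both rose. MUC5AC, the gel-forming mucin of gastric surface cells and airway goblet cells, lies on chromosome 11 from 1157953 to 1201138 and had the most counts of the group. It was at 346.9, 377.4 and 368.2 CPM in control replicates 1 to 3 and at 670.8, 822.3 and 683.9 CPM in ILL replicates 1 to 3. ILL replicate 2 was again the highest, and the groups did not overlap. The log2 fold change was 0.99 (SE 0.06, 95% interval 0.87 to 1.12, edgeR adjusted p = 4.3e-13), a fold change of 1.99. MUC5B, a gel-forming mucin of the airways and gallbladder, follows on the same strand from 1223066 to 1262172. It had 235, 194 and 154 counts in control libraries and 342, 352 and 356 counts with ILL, without overlap between the groups. Its log2 fold change was 0.92 (SE 0.15, 95% interval 0.62 to 1.22, edgeR adjusted p = 4.8e-06), and the value on the scale of log2 of FPKM plus 1 was 0.25. The antisense gene MUC5B-AS1 overlaps 434 of its exonic bases, and whether strand was used in counting is not given in the sources used here.

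Of the trefoil factors, TFF1, the trefoil peptide of gastric surface cells, fell, TFF2 did not pass the test, and TFF3 was too low to be tested. TFF1 lies on chromosome 21 from 42362282 to 42366594 and was at 47.0, 44.3 and 48.7 CPM in control replicates 1 to 3 and at 39.8, 32.5 and 40.03 CPM in ILL replicates 1 to 3. Every ILL library was below every control library, with ILL replicate 2 the lowest. The log2 fold change was -0.32 (SE 0.08, 95% interval -0.48 to -0.16, edgeR adjusted p = 0.000807). TFF2, on chromosome 21 from 42346357 to 42351128, had 166, 108 and 127 counts in control libraries and 210, 123 and 172 counts with ILL. The groups overlapped, and its log2 fold change of 0.40 did not pass the test (95% interval -0.04 to 0.85, edgeR adjusted p = 0.0985). Without ILL replicate 2, the lowest of the ILL libraries for this gene, the TFF2 log2 fold change was 0.58 and passed (edgeR adjusted p = 0.0227). TFF3, the trefoil peptide of goblet cells, on chromosome 21 from 42311667 to 42315651, had 0 counts in all control libraries and 5, 0 and 4 counts with ILL, too few to be tested or to give a fold change, since a count of 0 allows up to 3.

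Over the 9 tested genes, 6 rose, 1 fell and 2 did not pass an adjusted p of 0.05. Among all 13066 tested genes, 36.2% were higher and 36.9% lower by the same rule. The median log2 fold change of the 9 genes was 0.99 and that of all tested genes was 0.00 (-0.0012). With the added requirement of a fold change above 2, used in the methods of the study, MUC1, MUC4 and MUC20 were called as higher, against 12.5% of all tested genes, and none of the 9 was called under a fold change of 0.5, against 11.4% of all tested genes. MUC5AC and MUC16, with fold changes of 1.99 and 1.98, lay just below that cutoff. Both passed it when control replicate 3, ILL replicate 1 or ILL replicate 3 was left out, which raised the number called from 3 to 5. With all libraries and the Wald test of DESeq2, the program that the study used, MUC5AC also passed that cutoff, at a log2 fold change of 1.002. The groups did not overlap in 7 of the 9 genes, against 75.4% of all tested genes. Of the 7 mucins, 5 were highest in ILL replicate 2 among the ILL libraries by both counts and FPKM, the exceptions being MUC5B and MUC13, and all 3 trefoil factors were lowest in that library.

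**Figure D2:**
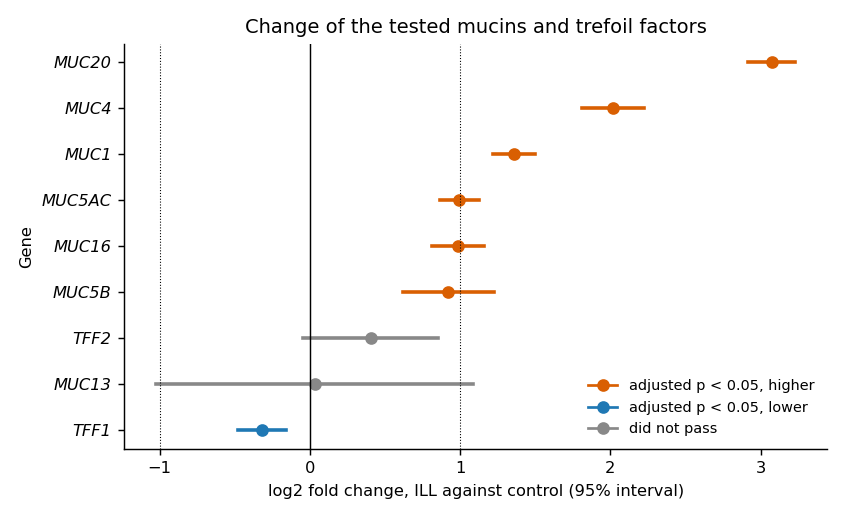
Log2 fold change of ILL against control for the 9 tested genes (points) with the 95% interval (lines), and dotted lines at a 2-fold change in either direction. MUC20 lies highest at 3.07, MUC5AC and MUC16 sit on the dotted line, and TFF1 is the gene below 0 that passed the test.

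Within each library, the share of every gene in the summed FPKM of the 10 genes does not depend on how libraries are scaled. The sum itself was between 163.3 and 169.4 FPKM in control libraries and between 241.9 and 253.2 FPKM with ILL. Trefoil transcripts, mostly TFF1, outweighed the mucins in every control library, at 97.5 to 107.0 FPKM against 62.2 to 65.7 FPKM. In every ILL library the mucins were ahead, at 152.4 to 183.5 FPKM against 69.7 to 89.5 FPKM for the trefoil factors. The order in controls depends on dividing by length, which was 492 bases for TFF1 and 44221 bases for MUC16. In CPM, without that division, TFF1 and TFF2 had control means of 46.7 and 3.65 CPM. The 10 genes summed to between 792.1 and 859.5 CPM in those libraries. TFF1 held 58.2% ± 1.54 (SD, n = 3) of the sum in controls and 29.97% ± 4.11 with ILL. MUC20 went from 2.74% ± 0.227 to 14.8% ± 0.309, and MUC1 from 18.0% ± 1.40 to 29.4% ± 2.55. MUC5AC went from 12.8% ± 0.707 to 16.3% ± 1.51, but its share of summed CPM, without dividing by length, changed by -2.60 percentage points. For each of these 4 genes the groups did not overlap in share of FPKM. The exact two-sided permutation test on these FPKM shares gave p = 0.1 for each, the smallest that 3 libraries against 3 can give. TFF2 held 3.71% ± 0.583 and 3.16% ± 0.884, which overlapped (p = 0.4 from the same exact test).

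**Figure D3:**
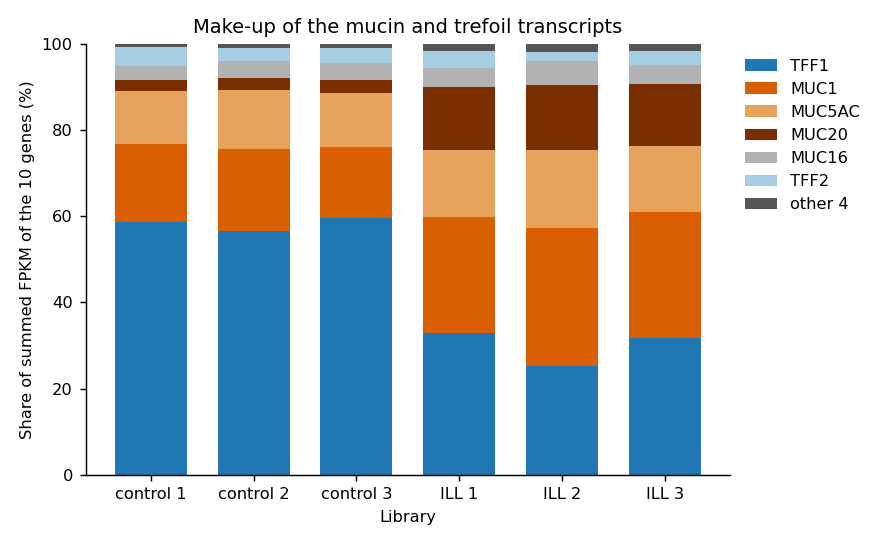
Share of each gene in the summed FPKM of the 10 mucin and trefoil genes, as stacked bars that start at 0, for each of the 6 libraries. TFF1 takes 56.5% to 59.6% of the control bars and 25.3% to 32.9% of the ILL bars, and the shares of MUC1 and MUC20 widen in all 3 ILL libraries.

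Most of the genes lie in clusters, and the neighbours of all 10 were read from GENCODE release 29 as the 2 nearest protein-coding genes on each side. Of 24 such neighbours that are not members, 18 were tested, of which 12 rose and 5 fell, or 66.7% and 27.8% against 36.2% and 36.9% of all tested genes, with a median log2 fold change of 0.39. On chromosome 11, MUC6, MUC2, MUC5AC, MUC5B and TOLLIP follow each other, and all 5 rose, with log2 fold changes of 1.44, 0.87, 0.99, 0.92 and 0.81. TOLLIP is no mucin but an adaptor of Toll-like receptor signaling, and BRSK2 beyond it fell, with a log2 fold change of -0.87. On chromosome 3, the log2 fold changes of 3.07 for MUC20 and 2.02 for MUC4 stood beside 0.17 for the kinase gene TNK2 and -0.98 for the transferrin receptor gene TFRC on the side of MUC4. On the other side, APOD had 6, 0 and 1 counts in controls and 22, 17 and 11 counts with ILL, a log2 fold change of 2.85 that was 4.76 without control replicate 1. PPP1R2, beyond APOD, had a log2 fold change of 0.40.

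On chromosome 21, the tested genes on either side of the trefoil cluster rose. TMPRSS3, a membrane serine protease gene 5.2 kb from TFF1 on the same strand, had 88, 52 and 78 counts in control libraries and 516, 527 and 535 counts with ILL. ABCG1, a sterol exporter gene 14.4 kb from TFF3, had 127, 146 and 109 counts in control libraries and 929, 968 and 997 counts with ILL. Every ILL library was several-fold above every control library for both, and with all 6 libraries none of the trefoil genes between them passed the test as higher. The log2 fold change was 2.92 for TMPRSS3 (SE 0.16, edgeR adjusted p = 2.5e-14) and 2.99 for ABCG1 (SE 0.12, edgeR adjusted p = 6.2e-17), against -0.32 for TFF1 and 0.40 for TFF2. Around MUC13, HEG1, which encodes a mucin-like membrane protein, rose by a log2 fold change of 1.21, and UMPS, of pyrimidine synthesis, fell by 1.21 on the log2 scale.

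**Figure D4:**
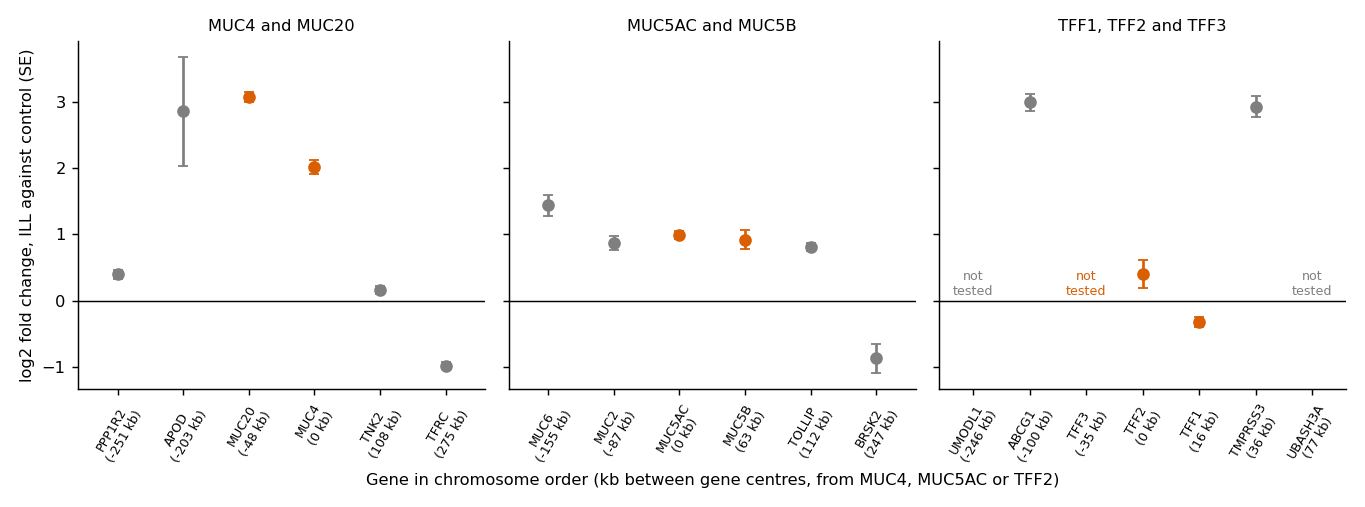
Log2 fold change of ILL against control (points, with standard error) for genes in chromosome order around MUC4, MUC5AC and TFF2, members in orange and neighbours in grey, with the distance between gene centres in kb under each name. All 5 genes from MUC6 to TOLLIP are above 0, whereas TFF1 and TFF2 lie low between ABCG1 at 2.99 and TMPRSS3 at 2.92.

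Other mucins and mucin-like proteins, 20 genes in all, had 7 members that passed the filter, of which 5 rose, or 71.4% against 36.2% of all tested genes, and none fell (median log2 fold change 0.74), with MUC3A and PARM1 not passing the test. MUC6, the gel-forming mucin of gastric glands, rose from 188, 202 and 127 counts to 400, 468 and 467 counts, a log2 fold change of 1.44 (SE 0.15, edgeR adjusted p = 9.0e-09). MUC2, the intestinal gel-forming mucin, rose from 16.5 ± 2.003 CPM (SD, n = 3) to 29.96 ± 4.22 CPM. SELPLG, the mucin-like selectin ligand of leukocytes, had the largest increase of this list, with a log2 fold change of 2.32 from 19, 25 and 25 counts to 129, 112 and 92 counts, while PTPRC, the pan-leukocyte marker, had 9, 0 and 1 counts with ILL. The sialomucins CD164 and PODXL rose by log2 fold changes of 0.74 and 0.36. Of other markers of intestinal goblet cells, ATOH1, CLCA1 and ITLN1 were at 0 in every library.

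Of 32 enzymes of mucin-type O-glycosylation, 24 were tested, of which 11 rose, 6 fell and 7 did not pass the test (median log2 fold change 0.16). The share that rose was 45.8% against 36.2% of all tested genes, and the share that fell was 25% against 36.9%. GCNT3 and GCNT4, which branch O-glycans, rose by log2 fold changes of 2.59 and 2.33, the first from 12, 6 and 14 counts to 79, 61 and 46 counts. GCNT1, another branching enzyme, fell by 1.17 on the log2 scale. ST6GALNAC2, a sialyltransferase of O-glycans, rose from 3.71 ± 0.405 CPM (SD, n = 3) to 20.5 ± 1.81 CPM, a log2 fold change of 2.46. Of the 13 tested GALNT enzymes, the family that attaches the starting sugar, 5 rose, 4 fell and 4 did not pass the test. GALNT14 and GALNT10 fell by 1.37 and 1.10 on the log2 scale, and GALNT18 and GALNT2 had log2 fold changes of -1.06 and -0.33. GALNT6, GALNT12, GALNT3, GALNT5 and GALNT11 rose by log2 fold changes of 1.41, 0.85, 0.67, 0.47 and 0.29. GALNT18, GALNT2 and the 5 that rose were named after their values were seen.

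The factors of mucous cells and of mucin folding and release had 26 tested genes among 34, of which 17 rose, or 65.4% against 36.2% of all tested genes, 2 fell and 7 did not pass the test (median log2 fold change 0.63). KLF4, a transcription factor of goblet cell differentiation, rose from 12.996 ± 0.809 CPM (SD, n = 3) to 59.0 ± 3.43 CPM, a log2 fold change of 2.18 (SE 0.08, edgeR adjusted p = 5.6e-18). ERN2, the stress sensor of mucous epithelia, rose by a log2 fold change of 2.07, and BCAS1 by 3.34 from 17, 3 and 1 counts to 69, 58 and 76 counts. The BCAS1 value rested on few control counts and was 5.01 without control replicate 1 and 2.85 without control replicate 3. AGR2, an endoplasmic reticulum protein needed for mucin folding, was named after its values were seen: it had 2596, 2505 and 2312 counts in controls and 9500, 8694 and 9749 counts with ILL, a log2 fold change of 1.98 (SE 0.06, edgeR adjusted p = 9.2e-20). In the other direction, SPDEF, an ETS factor of mucous cell differentiation, fell by 0.31 on the log2 scale (edgeR adjusted p = 0.000546). The other gene that fell was CLCA4, also named after its values were seen, with a log2 fold change of -1.45 from 19, 19 and 28 counts, and the number of genes that fell was 1 without control replicate 2, control replicate 3 or ILL replicate 3. Among the smaller changes, SNAP23, a membrane fusion protein, and the transcription factor FOXA2 rose by log2 fold changes of 0.37 and 0.34. Without control replicate 2 or ILL replicate 2, FOXA2 no longer passed, with an edgeR adjusted p = 0.0585 and an edgeR adjusted p = 0.0584 in that order.

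Of 21 receptors, binding partners and sheddases of mucins and trefoil factors, 19 were listed and 15 tested, of which 10 rose, or 66.7% against 36.2% of all tested genes, 3 fell and 2 did not pass the test (median log2 fold change 0.46). ERBB3, a partner of ERBB2, rose from 42.6 ± 2.19 CPM (SD, n = 3) to 114.7 ± 8.83 CPM, a log2 fold change of 1.43. ICAM1, an adhesion protein that binds MUC1, rose by a log2 fold change of 1.40 and ADAM17, a protease that sheds MUC1, by 1.20. MSLN, the mesothelin that binds MUC16, was named after its values were seen and rose from 183.6 ± 8.33 CPM to 406.1 ± 39.9 CPM. The 3 that fell were EGFR, SRC and ACKR3, a chemokine scavenger, with log2 fold changes of -0.70, -0.50 and -1.15.

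**Figure D5:**
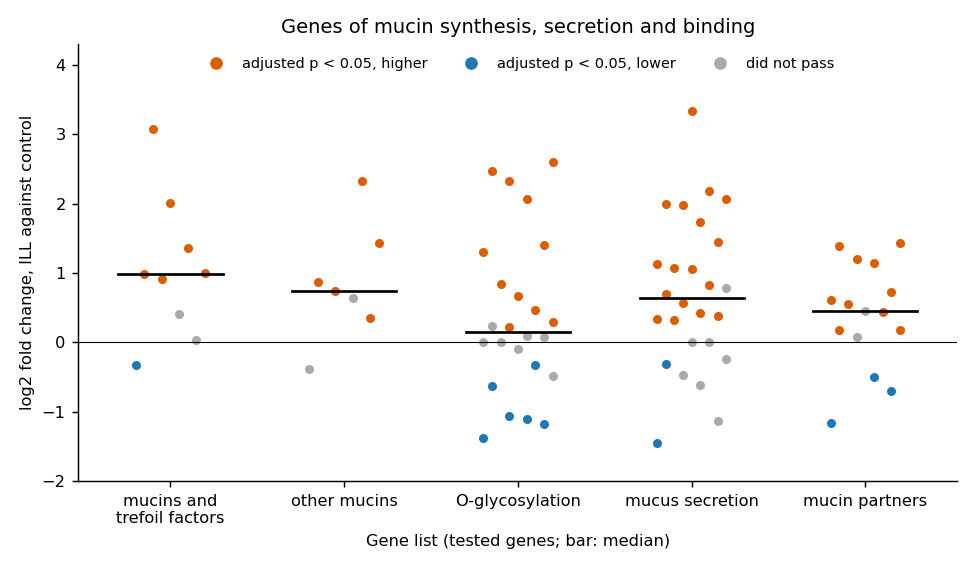
Log2 fold change of ILL against control for each tested gene (points) of 5 lists, with the median as a black bar, orange for genes that rose, blue for genes that fell and grey for genes that did not pass an adjusted p of 0.05. Medians run from 0.16 for the O-glycosylation enzymes to 0.99 for the mucins and trefoil factors.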

How the data were processed

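The authors deposited a table that holds, for each gene and library, the raw count and the FPKM value. Per the labels, mRNA libraries were made from total RNA extracted with TRIzol, and the submitters' processing notes name GRCh38 and DESeq2. The aligner, counting program and annotation are not given in the sources used here. The deposited FPKM values equal the count divided by 1 length per gene and by the total count, within 0.1% for 100% of 88055 nonzero values, and carry no further scaling. Counts were filtered with filterByExpr, which left 13066 genes, scaled by TMM and tested with edgeR's quasi-likelihood test (edgeR 4.0.16, R 4.3.3) with Benjamini-Hochberg adjustment over all tested genes. CPM values use the TMM-adjusted totals. Standard errors and 95% intervals follow from the quasi-likelihood statistic, and the biological coefficient of variation was 0.0717, so that the spread between libraries, and for genes with few counts the counting error, sets the precision. The fit was also run on simulated counts, drawn with the spread it had estimated. Of 12967 genes, 200 were changed by a log2 fold change of 2, up or down. It called 100% of these and 2 unchanged genes. With so few changed genes, the simulation cannot show how the scaling behaves where many genes change.

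The members and lists were chosen with earlier results of these data known. All members are named. From each other list the text names at most 3 genes at either end of the log2 fold change among those at an adjusted p under 0.05, whose mean reached 1 CPM and whose groups did not overlap, and it names neighbours past the fold change cutoff of 2. Other neighbours are named as values to show the cluster, and these were chosen after their values were seen, as were genes said to be at 0. Gene positions and exon overlaps come from GENCODE release 29 on GRCh38, and promoter windows from RefSeq on GRCh38.p14. Replicate numbers were not used to pair the libraries in the main fit. Alternatives were DESeq2's size factors or library size only, no filter or a minimum of 10 counts per library, the Wald test of DESeq2 1.42.0, a block for the replicate number, the omission of each library, and limma (limma 3.58.1) on log2 of FPKM plus 1 or plus 0.1.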

Additional observations from a re-analysis of the deposited data

How the results depend on the processing

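MUC1, MUC4, MUC5AC, MUC5B, MUC16, MUC20 and TFF1 kept their direction and an adjusted p under 0.05 in every alternative run for them, with log2 fold changes from 1.25 to 1.44 for MUC1, 1.21 to 2.14 for MUC4, 0.89 to 1.05 for MUC5AC, 0.25 to 1.02 for MUC5B, 0.81 to 1.09 for MUC16, 2.76 to 3.13 for MUC20 and -0.39 to -0.23 for TFF1. The lowest values of MUC4 and MUC5B came from limma on log2 of FPKM plus 1. MUC5B and MUC13 could not be fitted with limma where a mean FPKM of at least 1 was required. The number of these genes called past a 2-fold change was 3, between 3 and 5 when 1 library was left out, 4 with DESeq2's size factors, its Wald test or a minimum of 10 counts per library (MUC5AC added), 5 with a cutoff of 1.9-fold (chosen after seeing the data) and 7 by adjusted p alone. MUC13, which did not pass in any fit, had a log2 fold change of -0.0355 with library size only, of -0.0051 with limma on log2 of FPKM plus 1 without a filter, and from -0.10 to 0.32 without 1 library. For TFF2 that range was 0.22 to 0.58. The number of mucous-cell genes that fell was 1 in place of 2 without a filter, with a minimum of 10 counts per library and with DESeq2's Wald test, and from 1 to 2 without 1 library. As shares of summed CPM in place of FPKM, which does not correct for length, the change was 2.95 percentage points for MUC1, 4 for MUC20, -3.45 for TFF1 and -2.60 for MUC5AC, which reversed. MUC16 and MUC5B also reversed, from 0.997 and 0.0384 percentage points by FPKM to -2.18 and -0.0665 by CPM. Over all genes the number called was 3120 (52.4% higher), 1591 with limma on log2 of FPKM plus 1 (42.0% higher), 1609 without its filter (42.3% higher), 2156 with a pseudocount of 0.1 (42.2% higher, with a median log2 fold change of all genes of -0.10) and 9547 by adjusted p alone, and the cause of limma's lower counts was not tested. With the replicate number as a block it was 3111, and the block changed no call of a member. Deviations of same-numbered libraries had correlations of 0.0067, -0.02 and -0.0605, and those of other pairs lay between -0.0589 and 0.0722. Such small correlations cannot show whether same-numbered libraries were handled together, and no library of either group is known to pair with another. Of the 28 other genes named by rule, 27 passed in every alternative run, the exception being FOXA2. MUC13 and TFF2 are limited by depth and by spread between libraries, as their intervals show.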

Other observations

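Several other mucin genes were close to silent in HCCC9810 cells in both groups. MUC7 and MUC17 had 0 counts in all 6 libraries, and MUC12, MUC15, MUC19, MUC21 and MUC22 had at most 5 counts in any library. OVGP1, the oviductal glycoprotein also known as a mucin, had 1, 0 and 2 counts in control libraries and 15, 3 and 15 counts with ILL, which did not pass the filter and was not tested.

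More O-glycan enzymes had large changes, of which ST6GALNAC1 and B3GNT3, which both rose, were named after their values were seen. Past a 2-fold change, 6 of the 24 tested enzymes were called higher and 4 lower, against 12.5% and 11.4% of all tested genes. ST6GALNAC1, which makes the sialyl-Tn antigen carried by mucins, had 213, 158 and 174 counts in control libraries and 769, 732 and 678 counts with ILL, a log2 fold change of 2.07 (SE 0.12, edgeR adjusted p = 7.2e-14). B3GNT3, which extends O-glycans, went from 117.0 ± 7.22 CPM (SD, n = 3) to 288.0 ± 14.8 CPM.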
